A study of Drosophila melanogaster with 2 samples.

Results

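The genes described here encode the subunits of protein kinase A (PKA) of Drosophila melanogaster and the enzymes that make and break its activator, cyclic AMP (cAMP). They are 7 genes, Pka-R1 and Pka-R2 (regulatory subunits), Pka-C1, Pka-C2 and Pka-C3 (catalytic subunits or relatives of them), rut (an adenylyl cyclase) and dnc (a cAMP phosphodiesterase), among 13945 protein-coding genes on the 6 chromosome arms used. The set was selected on the region lists described here, because a region of Pka-R2 stood near the top of them, so its ranks and counts are descriptions and carry no test. A region was assigned to a gene when its summit lay in the gene body or within 2 kb upstream of it. By this rule the 7 genes held 61 of the 30000 regions of the pooled list and 3 of the 1476 regions of the list thresholded on the irreproducible discovery rate (IDR).

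The regions come from chromatin immunoprecipitation followed by sequencing (ChIP-seq) for Jim, a C2H2 zinc finger transcription factor, in whole wandering larvae of the last instar, males and females pooled, of unknown age per the labels. All larvae were of the jim-GFP strain, a transgenic line stably expressing Jim with green fluorescent protein at its C terminus, and an antibody against that tag was used, so tagged Jim from every larval tissue was measured together. There was 1 group of 2 biological replicates, labelled 1 and 3, whose library fragments ranged from 175 to 275 bp and from 200 to 325 bp, and the control experiment that the labels name was not analysed here. A cell type, a tissue or a condition therefore cannot be told apart from another in these lists.

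In the resting state PKA is a tetramer in which a dimer of regulatory subunits holds a pair of catalytic subunits inactive. Cyclic AMP, made by adenylyl cyclases below G protein coupled receptors, binds the regulatory subunits and frees the catalytic ones, and phosphodiesterases end the signal. In the fly, rut and dnc are classical learning and memory genes, and PKA is also known in larvae for restraining Hedgehog signalling in imaginal discs.

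Of the 7 genes, 3 held a summit of the IDR list, with Pka-R2 at rank 3 by signal, Pka-C1 at rank 53 and rut at rank 340. Pka-R1, Pka-C2, Pka-C3 and dnc held none. The IDR regions were exactly the 1476 strongest regions of the pooled list. All other pooled regions of the 7 genes therefore lay below the lowest IDR signal, which was 65.3 on the scale of the authors' peak caller.

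The sequences around summits show what the DNA under these regions is like, from the strongest printed here to the weakest. They were read from the Release 6 genome (dm6), each on the strand of its gene and written from 5′ to 3′. The first is the whole Pka-C1 region of the IDR list, chr2L:9692552-9692618 on the minus strand, and its summit is base 4. The other lines hold 101 bases centred on a summit, in the IDR region of rut (chrX:14805889-14805989, minus strand), an intronic region of Pka-C1 at pooled rank 2422 (chr2L:9686056-9686156, minus strand), the strongest region of Pka-R1 at pooled rank 7439 (chr3L:20831480-20831580, plus strand) and the region upstream of Pka-C2 at pooled rank 23123 (chr3R:30698251-30698351, minus strand). Capitals mark the motifs searched, here runs of at least 7 A, runs of at least 6 G and CACACACA, on either strand.
Pka-C1 IDR region: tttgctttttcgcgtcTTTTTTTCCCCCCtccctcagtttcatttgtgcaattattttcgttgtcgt
rut IDR region: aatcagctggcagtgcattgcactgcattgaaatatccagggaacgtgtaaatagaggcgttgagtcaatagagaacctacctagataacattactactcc
Pka-C1 second intronic region: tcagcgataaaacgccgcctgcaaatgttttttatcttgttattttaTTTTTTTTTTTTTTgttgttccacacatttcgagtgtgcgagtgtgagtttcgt
Pka-R1 strongest region: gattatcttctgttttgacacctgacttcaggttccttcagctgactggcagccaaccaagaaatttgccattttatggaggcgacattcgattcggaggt
Pka-C2 upstream region: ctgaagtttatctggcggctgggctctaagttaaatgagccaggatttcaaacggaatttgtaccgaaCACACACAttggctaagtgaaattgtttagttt

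In the short Pka-C1 region a run of 7 T stood directly before a run of 6 C, beginning 13 bp and 20 bp past the summit. The second intronic Pka-C1 region held a longer run of T at its centre. None of the motifs was found in the windows of rut and Pka-R1, and the window of Pka-C2 held the repeat CACACACA. A match is a description of the letters and not evidence of a binding site.

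**Figure D1:**
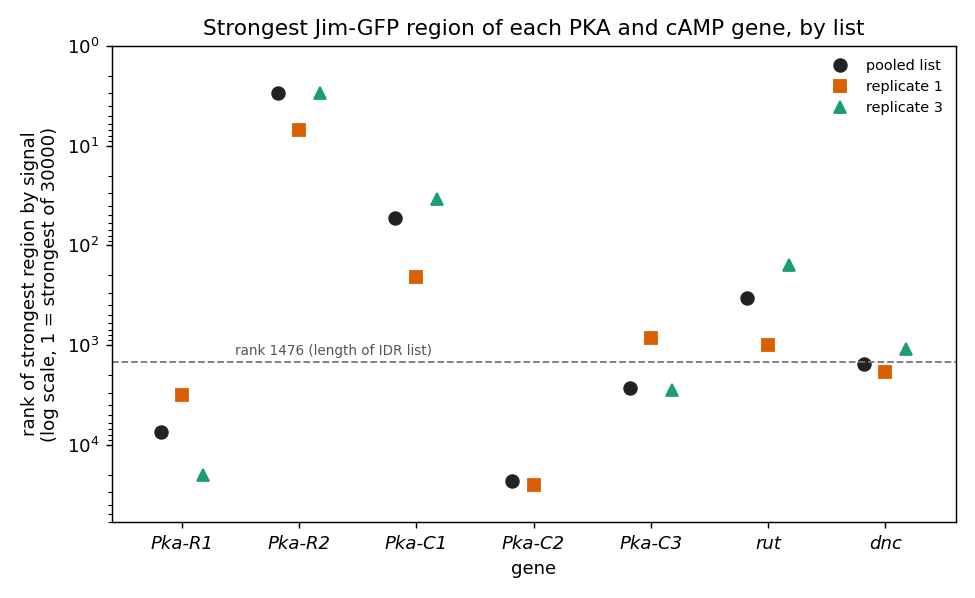
The rank by signal of the strongest region of each gene (y axis, log scale, 1 is the strongest of 30000 regions) in the pooled list (circles), replicate 1 (squares) and replicate 3 (triangles). All 3 points of Pka-R2, Pka-C1 and rut lie above the dashed line at rank 1476, Pka-C3 and dnc have 1 point each above it, and Pka-C2 has no point for replicate 3.

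Pka-R2 (FBgn0022382, dm6 2R, 9993890 to 10026042, minus strand, 32.2 kb), which encodes the type II regulatory subunit, held by far the strongest region of the 7 genes. It lay at 10025504 to 10025723, 426 bp inside the gene from its only annotated transcript start, in the first intron of all 4 transcripts. Its signal was 491.5 in the pooled list (rank 3), 187.5 in replicate 1 (rank 7) and 272.5 in replicate 3 (rank 3). Signals are scaled separately in each list, so levels were compared between lists only as ranks. The summits of the 2 replicates were 1 bp apart, beside a median of 25 bp over the 1367 IDR regions found in both replicates, of which 6.88% lay as close or closer. The pooled region was 220 bp wide, that of replicate 1 was 174 bp and that of replicate 3 was 194 bp, each narrower than the usual width of its list, which was 260, 210 and 260 bp.

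The remaining regions of Pka-R2 were weak, so 1 place in a long gene carried its rank. It held 12 pooled regions, 12 of replicate 1 and 10 of replicate 3, and 11 of the 12 pooled regions were intronic. The second strongest had a pooled signal of 38.4 (rank 4994), 12511 bp from the start. The strongest region thus stood 12.8-fold above the next in the pooled list, 10.0-fold above it in replicate 1 and 10.1-fold above it in replicate 3. Over the 1274 genes with an IDR summit and more than 1 pooled region the median of this ratio was 2.14, and 1 gene, CG12128, had a larger ratio than Pka-R2. CG12128 is the divergent neighbour, and its ratio of 19.7 rests on the same region, whose summit lay 1223 bp upstream of its start.

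Only 2 protein-coding genes had a pooled region stronger than that of Pka-R2, against 5 in replicate 1 and 2 in replicate 3. Its neighbours in the pooled ranking were regions whose nearest start belonged to jim itself (signal 529.5) and osp (528.0) above it, and CG14100 (373.6) and ph-d (360.2) below it. They are the most similar in rank by construction, and nothing about shared function follows from that. The next IDR summits on the arm were 36.5 kb and 98.7 kb away from that of Pka-R2.

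**Figure D2:**
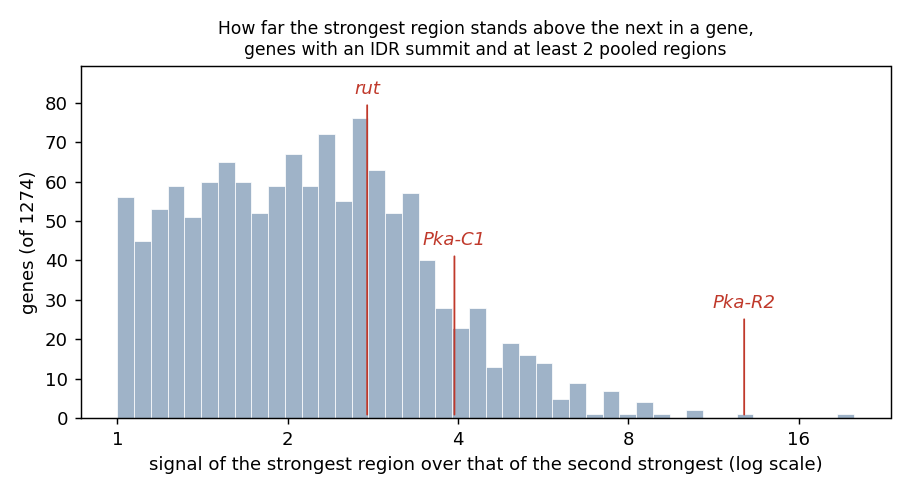
A histogram of 1274 genes (y axis, number of genes) by the signal of the strongest pooled region over that of the second strongest (x axis, log scale), with lines at 3 of the genes described here. Pka-R2 lies at 12.8, Pka-C1 at 3.94 and rut at 2.76, beside a median of 2.14.

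Pka-R1 (FBgn0259243, 3L, 20816118 to 20836048, plus strand, 19.9 kb, 6 transcript starts) encodes the type I regulatory subunit and held no IDR summit. Its strongest pooled region had a signal of 33.2 (rank 7439), in an intron 3305 bp from a start. At that summit replicate 1 had a region of signal 24.9 (rank 3167) and replicate 3 one of 13.7 (rank 23013). The strongest Pka-R1 region of replicate 3 was another one, of signal 14.4 (rank 20001), 211 bp upstream of a start. The gene held 4 pooled regions, while replicate 1 had 4 and replicate 3 had 2. The paralogous regulatory subunits thus stood at ranks 3 and 7439 of the same list.

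Pka-C1 (FBgn0000273, 2L, 9682315 to 9699297, minus strand, 17.0 kb, 1 transcript start) encodes the main catalytic subunit. Its IDR region, printed above, lay 6682 bp from the start in the second intron of all 3 transcripts, an intron of 11.0 kb. The signal was 210.4 in the pooled list (rank 53), 70.2 in replicate 1 (rank 210) and 130.6 in replicate 3 (rank 34). It ranked within the strongest 1476 regions of each list. The region was 67 bp wide in the pooled list and in replicate 3, where it had the same ends, and 210 bp wide in replicate 1. Its pooled summit was 3 bp from the end of the region, and the summits of the 2 replicates were 29 bp apart. The pooled list held 71 regions narrower than its usual width, all of them in the IDR list, with a median rank of 40.

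Pka-C1 was the gene with the most regions for its length among the 7. It held 11 in the pooled list, 57.9 per 100 kb of gene body and upstream window, 8 in replicate 1 and 11 in replicate 3. After the IDR region came a pooled region of signal 53.4 (rank 2273) at the start itself, 6 bp upstream, which had a counterpart in replicate 3 (rank 1788) and none in replicate 1. A further one of signal 51.7 (rank 2422), 13191 bp from the start and shown above, was found in both replicates at ranks 2628 and 2777. The strongest Pka-C1 region stood 3.94-fold above the next, and 143 of the 1274 genes had a larger ratio.

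Pka-C2 (FBgn0000274, 3R, 30695537 to 30697138, minus strand, 1.6 kb) encodes a relative of the catalytic subunit and is the only one of the 7 genes shorter than 15 kb. It held 1 pooled region, of signal 22.8 (rank 23123), 1163 bp upstream of its start and inside the noncoding gene lncRNA:CR46115. Neither replicate had a region at that summit. Replicate 1 held another region, of signal 11.7 (rank 25482), 841 bp past the start in the coding exon, and replicate 3 held none.

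Pka-C3 (FBgn0000489, 3L, 15925805 to 15954797, minus strand, 29.0 kb, 2 transcript starts), the fly relative of the human kinase PRKX, held 8 pooled regions and none in the IDR list. The strongest, of signal 49.2 (rank 2712), was also the one nearest to the edge of the upstream window, 1834 bp from the start of Pka-C3 and 4 bp from a start of the neighbouring gene elgi. Replicate 1 had its strongest Pka-C3 region at the same summit (signal 42.6, rank 848), and replicate 3 had no region there. Just outside the window, replicate 1 had a region 2260 bp upstream with a signal of 13.0. The strongest region of replicate 3, of signal 26.8 (rank 2826), lay 28 bp past the start of Pka-C3, where the pooled region had a signal of 29.1 (rank 11041) and replicate 1 had none. The 2 replicates thus placed their strongest region of this gene at starts of different genes.

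The gene rut (FBgn0003301, X, 14787478 to 14826073, minus strand, 38.6 kb, 3 transcript starts) encodes the calcium and calmodulin responsive adenylyl cyclase. Its IDR region, at 14805809 to 14806068, lay 12850 bp from the nearest start of any gene, in an intron of all 7 transcripts that is 17.2 to 23.4 kb long. The signal was 115.4 in the pooled list (rank 340), 40.3 in replicate 1 (rank 1003) and 78.6 in replicate 3 (rank 156), and the replicate summits were 16 bp apart. Only 39 IDR regions lay as far or farther from any start, and 119 lay as far as that of Pka-C1 or farther. With 3 pooled regions rut had the fewest per length, 7.39 per 100 kb. The second, of signal 41.8 (rank 4049), was 7 bp upstream of the first start, and neither replicate had a region at its summit. A region of replicate 1 (signal 16.9, rank 8954), with its summit 39 bp past a start, overlapped the edge of that pooled region.

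The gene dnc (FBgn0000479, X, 3176440 to 3343767, plus strand, 167.3 kb, 9 transcript starts) encodes the cAMP phosphodiesterase and lay just below the threshold. Its strongest pooled region had a signal of 63.7 (rank 1561). The list ended between a signal of 65.2552 at rank 1476 and 65.2468 at rank 1477. This region lay 201 bp upstream of a dnc start, in the 5′ untranslated region of a longer transcript, and ranked 5046 in replicate 1 and 1103 in replicate 3. The next, of signal 57.1 (rank 1961), was 7 bp from another start and ranked 1884 in replicate 1 and 5070 in replicate 3. The order of these dnc starts was thus reversed between the replicates. In all dnc held 22 pooled regions, 13.0 per 100 kb, with 27 in replicate 1 and 21 in replicate 3. Some of them lay nearest to starts of genes nested in its introns, such as CG14265 (signal 38.2, 415 bp) and ng3 (signal 30.0, 512 bp).

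**Figure D3:**
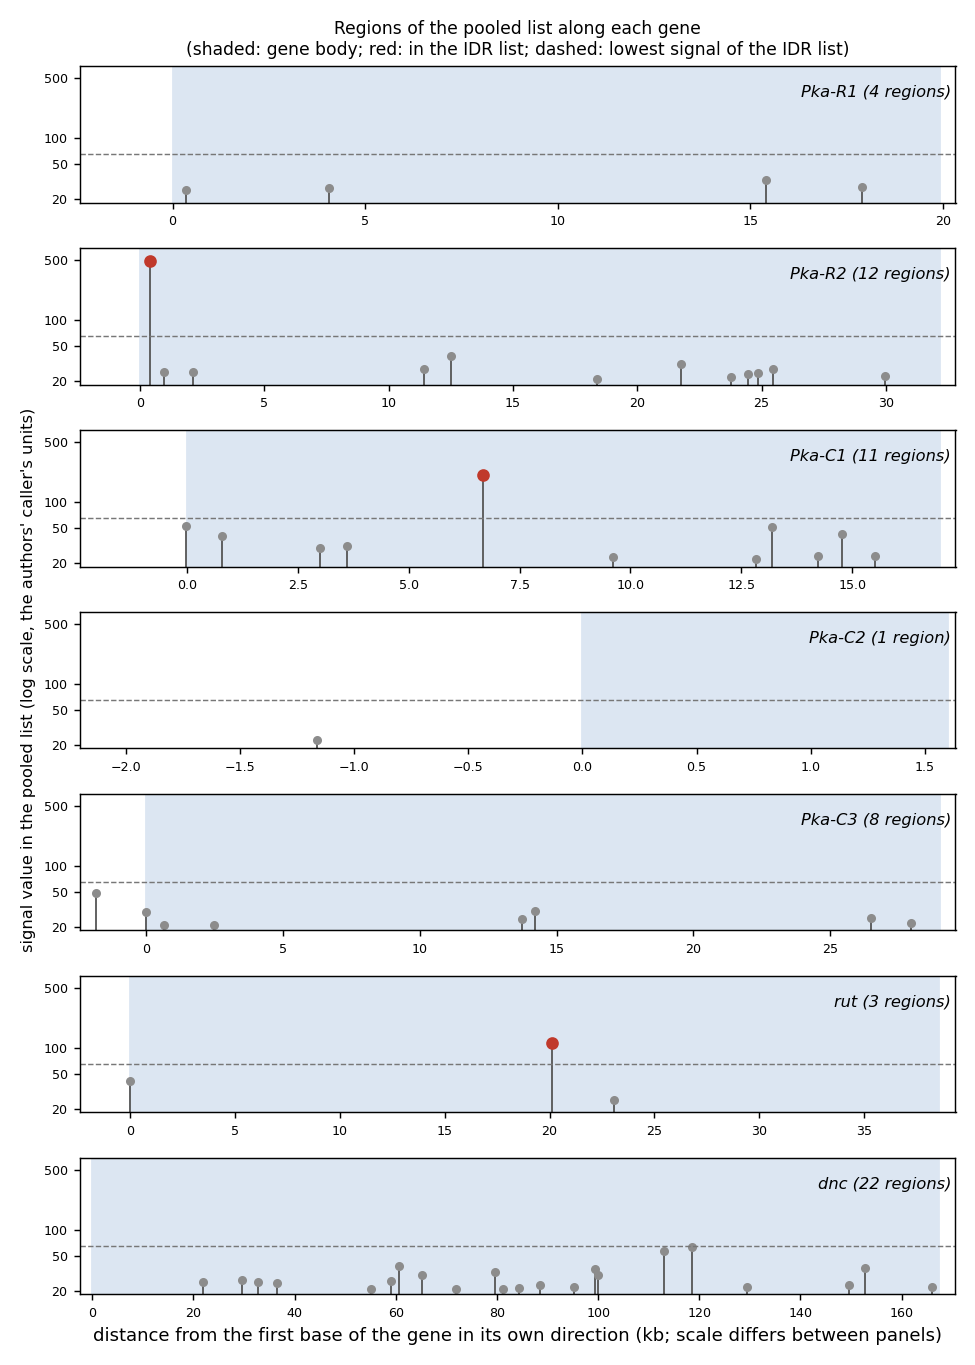
Signal of each pooled region (y axis, log scale, units of the authors' caller) against its distance in kb from the first base of the gene (x axis, scale differs between panels), with the gene body shaded, IDR regions in red and the lowest IDR signal dashed. Red points appear in the panels of Pka-R2, Pka-C1 and rut, 1 in each, and the 2 highest points of dnc, at 63.7 and 57.1, lie below the dashed line.

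The share of the 7 genes with an IDR summit was 3 of 7 (42.9%), beside 10.8% of all protein-coding genes. Gene length moves with this share. Among genes of at least 15 kb, a limit chosen after the data were seen, 29.0% held an IDR summit, beside 3 of the 6 long genes here. Over their joint length of 319.6 kb the genes held 0.939 IDR summits per 100 kb, beside 1.13 in all protein-coding genes of at least 15 kb. For pooled summits the values were 19.1 and 23.8. These densities lean on dnc, which alone spans 169.3 kb with 0 IDR summits and 13.0 pooled ones per 100 kb. Taken singly, Pka-C1 (5.27), Pka-R2 (2.93) and rut (2.46) lay above 1.13 and the rest at 0. In the pooled list Pka-C1, Pka-R2, Pka-C2 and Pka-C3 lay above 23.8, and Pka-R1, dnc and rut below it. All 7 genes held a pooled summit, where 67.1% of protein-coding genes did. The set was chosen with Pka-R2 in view, so nothing is read from these shares.

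Most regions of these genes lay in introns, among them the strongest pooled regions of Pka-R1, Pka-R2, Pka-C1 and rut. Those of Pka-C2 and Pka-C3 were upstream, and that of dnc lay in a 5′ untranslated region. The 3 IDR regions were all intronic, and only that of Pka-R2 lay within 500 bp of a transcript start of its gene, 1 of 7 genes beside 6.96% of all protein-coding genes. In the pooled list 6 of the 7 genes, all but Pka-C2, had a summit within 500 bp of one of their starts, beside 42.8% of all protein-coding genes. In replicate 1 4 genes did, beside 45.6%, and in replicate 3 5 genes, beside 39.2%. The pooled summits near a start were 10 of the 61. By annotation 43 of the 61 were intronic, 6 lay in 5′ and 6 in 3′ untranslated regions, 4 were upstream and 2 in coding exons. The same shares over all regions were not computed, so nothing particular to these genes is read from them.

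Most of the weaker regions were not shared by the replicates. Of the 61 pooled regions, 14 (23.0%) had a region of both replicates at the summit and 14 (23.0%) of neither, beside 25.8% and 17.2% of all pooled regions. For the IDR list the share found in both was 92.6%. All 3 IDR regions described here were among the strongest 1476 regions of both replicates, which held for 739 of the 1476 IDR regions (50.1%). These 3 stood at pooled ranks 3, 53 and 340, and the set was selected on such ranks. They were not set beside IDR regions of like rank, so nothing about their reproducibility is read from this. Among the weaker ones, 2 of the 4 remaining genes changed places, since Pka-C3 was the higher of the pair in replicate 1 and dnc in replicate 3.

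Short motifs were counted on both strands within 50 bp of each summit, a window of 101 bp. The cAMP response element TGACGTCA, the site of CREB proteins that PKA phosphorylates, was in none of the 61 regions of the 7 genes, and in 0.203% of the IDR and 0.147% of the other pooled regions. Its shorter form TGACG was in 4 of them, in Pka-R2, Pka-C1 and dnc, beside 10.0% of IDR and 8.92% of other regions. The longer motif holds the shorter one.

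Runs of A and GA repeats were more frequent among the IDR regions of the whole list than among the others. The motif AAAAAAAA was in 17.4% of IDR and 7.55% of other pooled regions and in 9 of the 61, and GAGAG in 25.5% and 14.7% and in 10 of the 61. CACACACA was in 7.18% and 3.38%, and in 6 of the 61. Of the strongest regions, that of Pka-R2 held a run of 8 A beginning 48 bp before the summit. That of Pka-C3 held such a run on the opposite strand, and that of dnc held GAGAG on the opposite strand, 19 bp past the summit. The motifs TGTTTAC and TATCGATA, in 4.34% and 1.63% of IDR and in 2.43% and 0.757% of other pooled regions, were in none of the 61. A pair of motifs was added after the Pka-C1 sequence was seen and overlaps the others. GGGGGG was in 6.03% of IDR and 2.32% of other regions and in 3 of the 61, and AAAAAAA in 25.1% and 11.0% and in 10 of the 61. The median share of G and C in these windows was 40.6% for the 61 regions, 45.5% for the IDR list and 42.6% for the other pooled regions. The median share of bases marked as repeats in the genome copy (soft-masked) was 18.8% for the 61 regions. It was 18.8% for the IDR list and 9.90% for the other pooled regions. Whether the runs and repeats above go with this share was not tested.

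Around these genes, a list of 57 genes of the cAMP pathway was read the same way, 50 of them outside the set of 7. Of the 57, 17 (29.8%) held an IDR summit, beside 10.8% of all protein-coding genes. The list is rich in long genes, and of its 34 genes of at least 15 kb 10 did (29.4%), beside 29.0% of all such genes. Without the 7 genes the counts were 14 of 50 and, among long genes, 7 of 28. The share among long pathway genes was thus near the background. This covers the long genes alone. Gbeta13F, Galphai, spoon, cmb, CrebB, CRTC and cos, all shorter than 15 kb, also held an IDR summit. Of all 13945 protein-coding genes 1501 held an IDR summit, and of the 1359 of at least 15 kb 394 did. Shorter genes were not given a share of their own. The part of length in the share of 29.8% was not tested, and the match among long genes does not speak for the shorter ones.

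The counts by role rest on few genes each, and no difference between roles is read from them. Beside them stand 10.8% of all protein-coding genes and 29.0% of those of at least 15 kb. Among the receptors that raise cAMP, such as those for dopamine, octopamine and neuropeptides, 10 of 13 are at least 15 kb long. None of the 13 held an IDR summit, though all 13 held a pooled one. Of the 5 G protein genes 2 did, Gbeta13F (signal 142.3, rank 168), a beta subunit, and Galphai (79.9, rank 894), the inhibitory alpha subunit. Of the 10 adenylyl cyclases rut was joined by Ac13E (71.8, rank 1201). Of the 6 phosphodiesterases Pde11 (133.7, rank 211) and Pde8 (81.9, rank 835) held IDR summits and dnc held none. Which of these 6 enzymes act on cAMP was not checked. Pde11 held 2 of them. Neither of the 2 other cAMP effectors listed, Epac and CngA, held any.

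Among the 5 genes for anchors and partners of PKA, 3 held an IDR summit. The pathway list was written for this report and is not complete, so the counts by role depend on it. The gene pkaap, a PKA anchor by its name, was not listed and also held an IDR summit. It was seen among genes with an IDR summit, and unlisted anchors without one were not searched for. It therefore adds nothing to the count. The 3 listed ones were cmb (129.6, rank 247), a planar cell polarity effector whose place in the pathway is uncertain, and the anchors rg (105.4, rank 426) and spoon (74.3, rank 1078). Of the 11 targets listed 6 held an IDR summit. Whether PKA acts on each of them, foxo and CrebA among them, was not checked. The transcription factor foxo came first (99.8, rank 508), followed by the CREB coactivator gene CRTC (95.9, rank 558), CrebB (92.3, rank 627), which encodes the fly CREB, the Hedgehog scaffold gene cos (81.3, rank 854), the kinase gene Sik3 (80.1, rank 889) and CrebA (70.1, rank 1268), a factor of the secretory pathway. The region of cos lay nearest to a start of Dhx15. Replicate 3 had no region at the summits named for Pde8, cmb, CrebB and cos. In the pooled list no other gene of the 57 stood above Pka-R2 and Pka-C1.

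**Figure D4:**
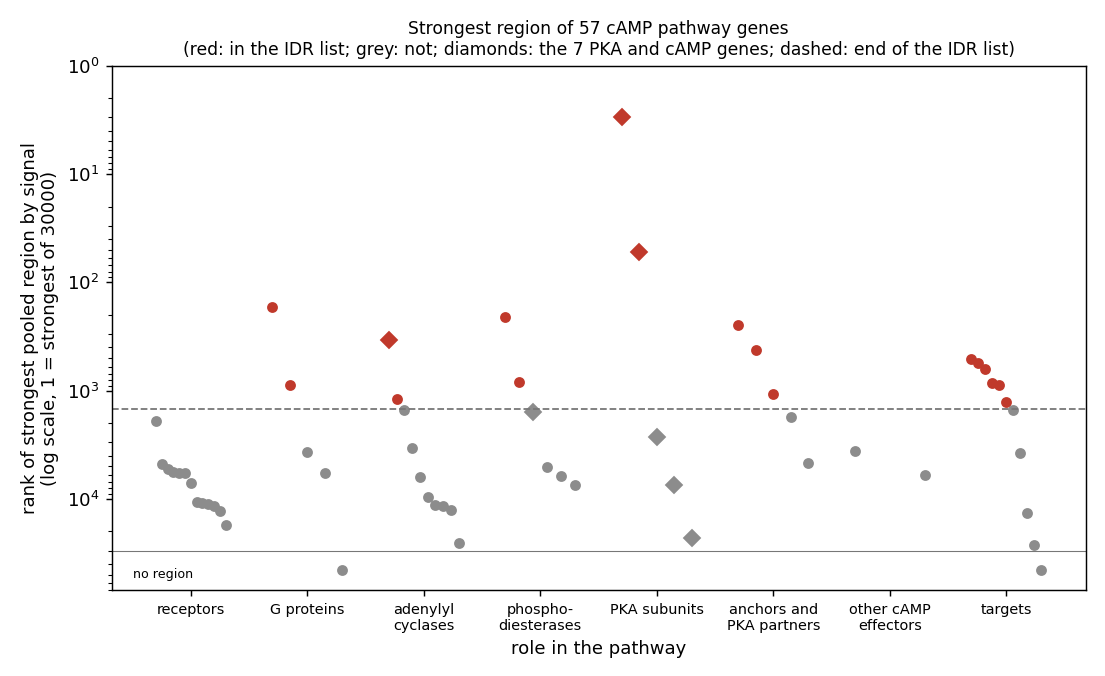
The rank of the strongest pooled region (y axis, log scale) of 57 cAMP pathway genes, grouped by role (x axis), with genes that hold an IDR summit in red and the 7 PKA and cAMP genes as diamonds. The 2 highest points, at ranks 3 and 53, are Pka-R2 and Pka-C1, the receptors are all grey, and 2 genes have no pooled region.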

How the data were processed

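ChIP-seq region lists were analysed for 1 group of 2 biological replicates of jim-GFP larvae. The deposited lists give for each region its ends, a summit, a signal value and a q-value field. Each replicate list was made from 1 replicate and a control, the pooled list from both replicates, and the IDR list from these 3, per the deposited notes. No name of an aligner or caller and no IDR threshold is given in the sources used here. The deposited signal is on the scale of the authors' caller and served for ranks, and for ratios between regions, inside each list. The q-value field that the authors deposited was treated as a score, since 20027 pooled values were below 0, and entered no result. Depth is unknown, since the lists carry no read totals, so there is no interval or floor.

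The dm6 lists were used and the dm3 lists were not. Summits were assigned to genes of Ensembl release 115 on 6 arms, and 1 region of replicate 3 outside them was left out. A region of a list was called found in another when its summit lay inside a region there. Sequences came from the RefSeq copy of Release 6. Protein and promoter sequences were not used here. The members and gene lists were chosen with earlier results of these data known. All 7 members were named, with each IDR region, the strongest pooled region and the strongest region of each replicate, and every other listed gene with an IDR summit. No test was run. Alternative windows, thresholds, overlaps and replicates were tried. Python 3.11.15, numpy 2.4.6 and pandas 2.3.3 were used, and the assignment was tested on simulated regions.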

Additional observations from a re-analysis of the deposited data

How the results depend on the processing

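Of 34 alternative values computed for 6 counts and ranks, 28 kept the main value within 1.5 times and 6 did not. Taking the 2952 strongest pooled regions in place of the IDR list raised the summits over the 7 genes from 3 to 8 and the genes with a summit from 3 to 5, by adding Pka-C3 and dnc, while the share of all protein-coding genes rose from 10.8% to 18.4%. With the strongest 738 IDR regions the pathway genes with a summit fell to 10 of 57, beside 5.88% of all protein-coding genes, with Pka-R2, Pka-C1 and rut still among them. With a limit of 250 bp in place of 500 bp, 0 members held an IDR summit near a start. Each replicate list alone, cut to 1476 regions, was also put in place of the IDR list. The members near a start then ranged from 1 to 2, and the rank of Pka-R2 from 3 to 7. The members with a summit were 4 each time, dnc joining in replicate 3 and Pka-C3 in replicate 1. Of all protein-coding genes, 10.6% held a summit with replicate 3 and 11.0% with replicate 1. Requiring 1 bp of overlap in place of a summit raised the pooled regions found in both replicates from 14 to 18 of 61. For this overlap and for the alternative counts near a start no share over all regions or genes is given, so nothing is read from them. Leaving out cmb, an alternative chosen after seeing the data, left 16 pathway genes with a summit. Ranking by the p-value field was not run, because it holds the same placeholder in every region. No paired analysis was possible because there is 1 group and no test. With 2 replicates, an unknown depth and an upper limit of 30000 regions per list, a gene without a region is one not listed at this depth.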
